A study of Mus musculus with 18 samples.

Results

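The levels of 9 genes for cell adhesion and ephrin signalling were followed in 18 RNA-seq libraries of mouse lens. The genes were listed by symbol, namely Epha2, Efna5, Cdh1, Cdh2, Itga6, Itgb1, Itgav, Cadm1 and Jam3, and each was found once among the 40800 genes of the count table. All 9 passed the filter on low counts, which kept 13938 genes. Whole lenses were pooled, and poly-A RNA was sequenced from 3 libraries in each of 6 groups, all on the C57BL/6J strain. The Cryaa line carries the Cryaa-R49C knock-in allele and was sampled at 2 days of age as WT, het and homo. The Cryab line carries the Cryab-R120G knock-in allele and was sampled at 14 days as WT, het and homo. Each knock-in allele is carried in the germline, so het and homo animals hold it in all tissues, and the WT groups are those of each line. Line and age cannot be told apart. Nothing in the labels says that the libraries of a group came from separate litters, so the p-values measure the spread between libraries only.

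The lens is a body of elongated fibre cells covered in front by an epithelial sheet, enclosed in a capsule of basement membrane. Epithelial cells hold to one another by E-cadherin (Cdh1) and N-cadherin (Cdh2), and fibre cells mainly by N-cadherin. Integrins, pairs of an alpha chain (Itga6, Itgav) and a beta chain (Itgb1), hold cells to the laminin and other matrix proteins of the capsule. Eph receptors and their membrane-bound ephrin ligands pass signals between touching cells, and loss of Epha2 or Efna5 is known to cause cataract in mice. Cadm1 and Jam3 are adhesion proteins of the immunoglobulin family, Cadm1 a nectin-like molecule of lateral membranes and Jam3 a junctional adhesion molecule. The levels of RNA below say nothing of protein at the membrane.

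Positions are given on the GRCm38 assembly, and all 9 genes are protein-coding in the GENCODE vM21 annotation. Epha2 lies at chr4:141301240-141329384 on the plus strand, Efna5 at chr17:62604184-62881317 on the minus strand, Cdh1 at chr8:106603351-106670246 on the plus strand and Itgb1 at chr8:128685654-128733200 on the plus strand. Itga6 (chr2:71745616-71858416) and Itgav (chr2:83724397-83806916) are both on the plus strand of chromosome 2. Cadm1 (chr9:47530173-47857637, plus strand) and Jam3 (chr9:27097384-27155421, minus strand) share chromosome 9. Exons of Itgav share 634 bases with Gm13684 and exons of Jam3 share 1159 bases with Gm48796, each on the opposite strand. The strand setting of the counting is not given in the sources used here, so reads of these stretches could be lost or shared.

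RefSeq promoter windows of 300 bases (250 before and 50 after the start of the gene, GRCm38.p6) were at hand for 4 of the 9 genes. They are shown as the windows at hand. Of these genes, Epha2, Itgb1 and Itgav were positively correlated across libraries, while Efna5 varied with others of the 9, as described further on. A link between the windows and how the genes varied was not tested. The windows are chr4:141300971-141301270 (Epha2, plus), chr8:128685404-128685703 (Itgb1, plus), chr2:83724147-83724446 (Itgav, plus) and chr17:62881268-62881567 (Efna5, minus). Capitals mark matches on either strand to GGGCGG (a GC box, read as CCGCCC on the other strand) or to TGACGTCA (a cyclic AMP response element).
Epha2: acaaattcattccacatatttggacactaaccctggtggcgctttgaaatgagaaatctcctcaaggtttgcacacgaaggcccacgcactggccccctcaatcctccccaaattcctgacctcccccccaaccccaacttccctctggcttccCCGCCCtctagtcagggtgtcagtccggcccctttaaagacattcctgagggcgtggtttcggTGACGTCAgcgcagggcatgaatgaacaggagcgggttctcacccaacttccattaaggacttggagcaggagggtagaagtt
Itgb1: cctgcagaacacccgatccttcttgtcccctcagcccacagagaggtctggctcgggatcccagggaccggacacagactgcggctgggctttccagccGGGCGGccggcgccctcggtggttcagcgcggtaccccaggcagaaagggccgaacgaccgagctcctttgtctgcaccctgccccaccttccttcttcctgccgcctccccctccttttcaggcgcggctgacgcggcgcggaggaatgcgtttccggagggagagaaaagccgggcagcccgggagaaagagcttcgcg
Itgav: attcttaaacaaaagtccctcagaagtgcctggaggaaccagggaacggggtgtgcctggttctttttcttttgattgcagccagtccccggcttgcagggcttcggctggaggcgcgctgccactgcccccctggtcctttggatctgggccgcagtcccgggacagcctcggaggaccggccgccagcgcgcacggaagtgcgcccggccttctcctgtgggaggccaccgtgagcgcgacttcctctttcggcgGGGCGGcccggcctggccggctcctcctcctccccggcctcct
Efna5: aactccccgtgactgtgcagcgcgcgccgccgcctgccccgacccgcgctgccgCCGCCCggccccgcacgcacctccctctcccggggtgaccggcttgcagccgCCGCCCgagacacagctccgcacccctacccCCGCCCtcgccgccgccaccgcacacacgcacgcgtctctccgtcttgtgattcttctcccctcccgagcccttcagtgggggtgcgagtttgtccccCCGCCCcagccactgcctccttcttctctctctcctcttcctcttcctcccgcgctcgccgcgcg
All 4 windows held a GC box, once in Epha2, Itgb1 and Itgav and 4 times in Efna5, against 35.7% of 32851 promoter windows. Only the Epha2 window held TGACGTCA, a motif found in 1.79% of all windows. None of the 4 held CACGTG (7.15% of all windows) or TATAAA (13.6%). The Efna5 window had 38 CpG dinucleotides and 73.3% G and C, the Itgb1 window 27 and 67.3%, the Itgav window 24 and 67.3%, and the Epha2 window 10 and 54.7%.

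Library totals lay between 14272174 and 29639719 counts. TMM scaling factors were above 1 in the Cryaa line (1.20 to 2.26) and below 1 in the Cryab line (0.488 to 0.774), where crystallins took 60.1% to 76.1% of the counts. Gm42418, which overlaps an annotated rRNA gene, took 2.53% of the counts in Cryaa homo replicate 1, against 24.5% and 42.6% in the other homo libraries of that line. In homo replicate 1 crystallins took 61.2% of the counts, against 37.7% and 23.8% in the other homo libraries and 46.3% to 61.4% in WT and het. That library also stood apart for several of the 9 genes, and its effect on each of them is given below. Among markers of lens cells, the summed level of 12 fibre genes was 5513 to 9263 CPM (the count scaled for depth after TMM) in Cryaa WT and 2570 to 3608 CPM in Cryaa homo. Lim2, one of the fibre markers, was listed at 0 in every library, while Mip, another, lay between 170.5 and 886 CPM. The sum of 8 epithelial genes was 114 to 137 CPM in Cryaa WT and 94.5 to 109.7 CPM in Cryaa homo. Of 11 fibre genes tested, 8 were called lower in homo and none was above 0, with a median change of -1.31. The median change over the epithelial genes was -0.09, with 4 of 8 above 0 and 1 called lower. Markers of cornea and conjunctiva summed to between 0.377 and 8.19 CPM over all libraries.

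Per kilobase of transcript, Cadm1 (15.7 CPM per kb, mean of 18 libraries) and Jam3 (14.2) had the highest levels of the 9 genes. Itgb1 followed at 9.66 CPM per kb. Efna5 (4.17), Itga6 (4.02) and Cdh2 (3.64) lay close together, and Itgav (1.49), Epha2 (1.24) and Cdh1 (1.06) were lowest. The counts behind these values ranged from 43 for Cdh1 to 5079 for Cadm1. Itgav varied most, with its highest library 4.08 times its lowest, followed by Efna5 (4.03 times) and Itga6 (3.92 times), while Itgb1 (2.31 times) and Cdh2 (2.36 times) varied least. The ratio of Cdh1 to Cdh2 counts, not corrected for length, lay between 0.1002 and 0.253 over all libraries.

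**Figure D1:**
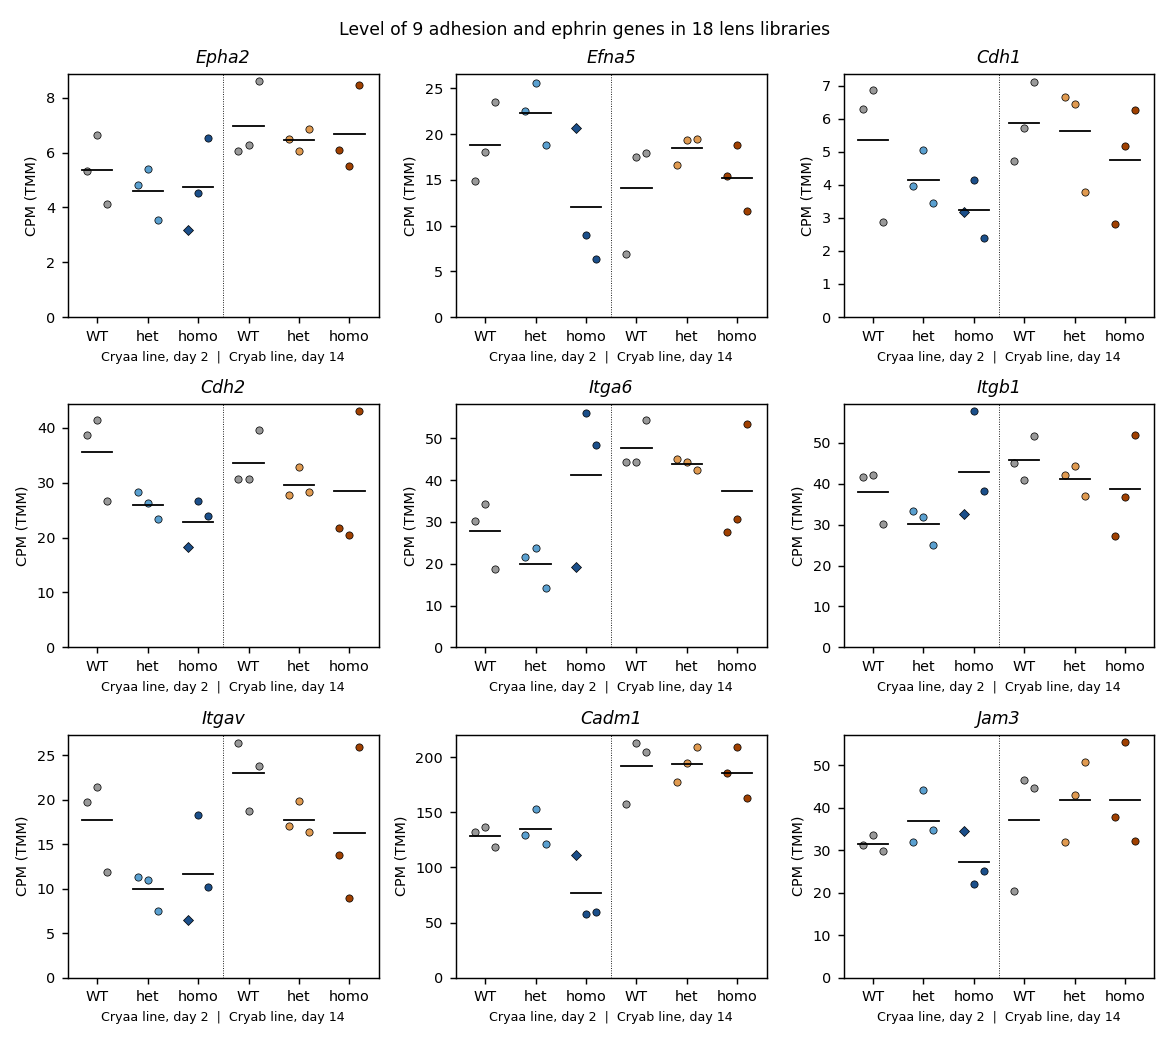
Levels of the 9 genes in CPM after TMM scaling (y axis, from 0) in each library, by line and genotype (x axis); points are libraries, bars are means of 3 libraries, and the diamond is Cryaa homo replicate 1. In Cadm1 the other homo libraries of the Cryaa line sit at 58.0 and 60.0 CPM, below all other libraries, and in Itga6 they sit at 56.1 and 48.4 CPM, above the WT and het libraries of that line.

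Cadm1 was the one gene of the 9 that was lower in Cryaa homo than in WT lenses past the threshold, a Benjamini-Hochberg FDR of at most 0.05 (called, below). Its level was 132, 136 and 118 CPM in WT, 129.6, 153 and 121 CPM in het, and 111.8, 58.0 and 60.0 CPM in homo. All 3 homo libraries lay below all WT and het libraries, although homo replicate 1 lay close to the lowest WT library. The fitted log2 fold change was -0.75 against WT (SE 0.23, 95% interval -1.24 to -0.27, FDR 0.0435) and -0.81 against het (SE 0.23, FDR 0.0329), or 1.68-fold lower than WT. Between het and WT, Cadm1 differed by 0.06 (95% interval -0.42 to 0.54, FDR 0.963). In all, 1 of 9 genes was called in homo against WT, where 9.79% of all genes tested were called and 4.92% were lower. The call of Cadm1 was close to the threshold. It was lost under 4 of 8 other settings, and on leaving out any WT library or homo replicate 2 or 3 (FDR 0.0644 to 0.188), while without homo replicate 1 the change was -1.13 (FDR 0.000107). Against het the call was lost under 2 of 8 other settings and on leaving out any het library or homo replicate 2 or 3 (FDR 0.0646 to 0.193), and without homo replicate 1 the change was -1.20 (FDR 4.98e-05).

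Itga6, the alpha chain of laminin-binding integrins, was higher in Cryaa homo than in het lenses. Its level was 30.4, 34.3 and 18.7 CPM in WT, 21.6, 23.7 and 14.3 CPM in het, and 19.3, 56.1 and 48.4 CPM in homo. Homo replicate 1 lay within the range of the het and WT libraries, and the other homo libraries lay above both. The log2 fold change was 1.05 against het (SE 0.32, 95% interval 0.38 to 1.73, FDR 0.0467) and 0.57 against WT (SE 0.32, 95% interval -0.1 to 1.24, FDR 0.296). By library size alone, which moved the median of all genes to 0.41, the change against WT was 1.01 and was called (FDR 0.0174). Without homo replicate 1 these became 1.39 (FDR 0.00047) and 0.91 (FDR 0.0164). Leaving out any other library of the homo and het groups ended the call against het (FDR 0.0754 to 0.28), as did DESeq2 size factors (FDR 0.0515) and a fit of only the groups compared (FDR 0.175).

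Cadm1 and Itga6 were thus the 2 of 9 genes called between homo and het, in a comparison with 8.32% of all genes called, 4.69% higher and 3.63% lower. Without homo replicate 1, the calls were Cadm1, Efna5 and Itga6 against WT, and Cadm1, Efna5, Itga6 and Itgb1 against het. In that setting the number of genes called over the whole table also rose, from 1365 to 3094 against WT and from 1160 to 4131 against het.

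The beta chain Itgb1, which pairs with Itga6, Itgav and other alpha chains, was at 41.6, 42.1 and 30.2 CPM in Cryaa WT, 33.3, 31.9 and 25.0 CPM in het, and 32.5, 57.8 and 38.3 CPM in homo. The groups overlapped, and homo replicate 2 was above all other libraries of the line. The change was 0.18 against WT (95% interval -0.33 to 0.68, FDR 0.724) and 0.51 against het (FDR 0.209). Without homo replicate 1 these were 0.34 (FDR 0.327) and 0.67 (FDR 0.0309).

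Itgav, the alpha chain of integrins that bind fibronectin and vitronectin, was the one gene of the 9 whose het libraries all lay below the WT libraries in the Cryaa line. Its level was 19.7, 21.5 and 11.8 CPM in WT, 11.3, 10.9 and 7.52 CPM in het, and 6.45, 18.3 and 10.2 CPM in homo. Het and WT were parted by a narrow gap, and the homo libraries spread over both. The change in het was -0.83 (SE 0.35, 95% interval -1.57 to -0.1, unadjusted p 0.0287 in edgeR's quasi-likelihood test), which did not pass the threshold (FDR 0.836). None of the 9 genes was called in het, and 0.00717% of all genes were (1 gene, with 708 at an unadjusted p under 0.05 and 2 by DESeq2's Wald test). For het libraries all below WT, the share over all genes was 12.3%. In het against WT the median change was -0.78 over mesenchyme and pericyte markers (0 of 6 above 0) and -0.52 over pigment and ciliary epithelium markers (2 of 8). It was 0.49 over photoreceptor markers (7 of 8 above 0) and 0.59 over erythrocyte markers (5 of 5). None of these markers was called, and their part was not tested. In homo, Itgav changed by -0.60 (95% interval -1.34 to 0.13, FDR 0.318), and by -0.31 without homo replicate 1 (FDR 0.616). Over all single libraries left out, the change lay between -1.09 and -0.31.

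The ratio of the counts of 2 genes within a library does not depend on the scaling. Of 4 ratios chosen for description, that of Itga6 to Itgav separated the genotypes of the Cryaa line. It was 1.54, 1.60 and 1.58 in WT, 1.91, 2.17 and 1.90 in het, and 2.99, 3.07 and 4.73 in homo. The 3 WT libraries lay within a narrow range, each het library was above them, and each homo library, replicate 1 included, was above each het library. The means of the log2 ratio were 0.66 ± 0.03, 0.99 ± 0.11 and 1.81 ± 0.37 (SD, n = 3 each). For background, the ratio of Itga6 to each of 12199 other genes with counts in every library was ordered in this way, WT below het below homo without overlap, for 0.533% of genes. For the ratio of each such gene to Itgav, the share was 2.47%. Het alone was above WT for 0.82% of ratios with Itga6 and 42.3% of ratios to Itgav, and homo alone for 12.4% and 18.4%. The ratio is given as a description, with no test. In the Cryab line the ratio was 1.69, 2.37 and 2.29 in WT, 2.65, 2.23 and 2.60 in het, and 2.00, 3.44 and 2.06 in homo, and the groups overlapped.

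The other ratios overlapped between genotypes. Itga6 to Itgb1 was 0.62 to 0.816 in Cryaa WT, 0.573 to 0.744 in het and 0.592 to 1.26 in homo, where replicate 1 had the lowest value. In the Cryab line it lay between 0.837 and 1.15. Epha2 to Efna5 was 0.153 in Cryaa homo replicate 1 and 0.503 and 1.03 in the other homo libraries, against 0.176 to 0.37 in WT.

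**Figure D2:**
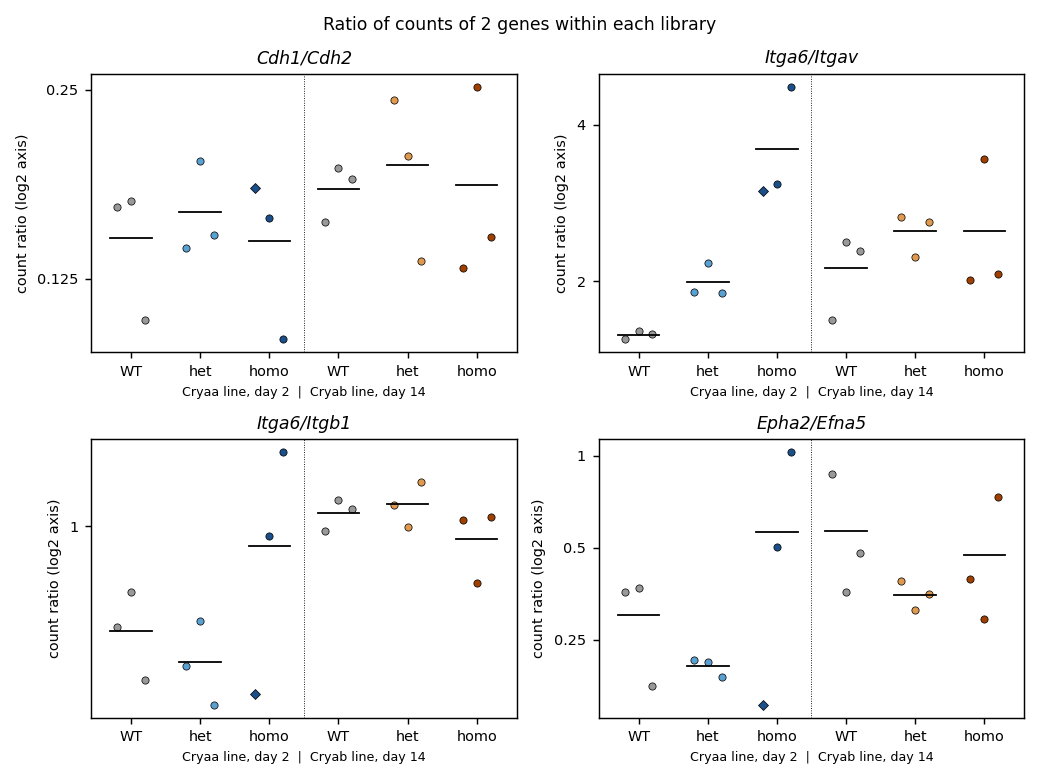
Ratios of counts of 2 genes within each library (y axis, log2 axis) by line and genotype (x axis); points are libraries, bars are means of 3, and the diamond is Cryaa homo replicate 1. Itga6 to Itgav rises without overlap from WT (1.54 to 1.60) through het (1.90 to 2.17) to homo (2.99 to 4.73) in the Cryaa line, and overlaps between the groups of the Cryab line.

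N-cadherin (Cdh2, chr18:16588877-16809246, minus strand) was at 38.7, 41.4 and 26.7 CPM in Cryaa WT, 28.3, 26.3 and 23.4 CPM in het, and 18.3, 26.6 and 23.9 CPM in homo. All homo libraries lay below all WT libraries, by a gap of less than 1 CPM between the nearest. The log2 fold change was -0.64 (SE 0.25, 95% interval -1.16 to -0.11, FDR 0.12), short of the threshold, and -0.50 without homo replicate 1 (FDR 0.174). The likelihood-ratio test called it. Cdh2 and Cadm1 were the 2 of 9 genes with all homo below all WT libraries, where the share over all genes was 12.6%. Against het, Cadm1 alone was in this position, and the share was 10.5%. E-cadherin (Cdh1) was at 6.30, 6.88 and 2.87 CPM in WT and at 3.19, 4.15 and 2.39 CPM in homo, with 3.44 to 5.06 CPM in het, and the groups overlapped. It changed by -0.72 (SE 0.33, FDR 0.176), and by -0.70 without homo replicate 1.

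The ephrin ligand Efna5 was at 14.9, 17.99 and 23.5 CPM in Cryaa WT, 22.5, 25.6 and 18.8 CPM in het, and 20.7, 8.98 and 6.35 CPM in homo. Homo replicate 1 lay with the WT and het libraries, and the other homo libraries were the lowest of the line. The change against WT was -0.64 (SE 0.36, FDR 0.292), and without homo replicate 1 it was -1.29 (FDR 0.00536). Over all single libraries left out, it lay between -1.29 and -0.33. The receptor Epha2 was at 4.13 to 6.65 CPM in WT, 3.54 to 5.40 CPM in het and 3.17 to 6.54 CPM in homo. Its changes were -0.23 in het (95% interval -0.78 to 0.32) and -0.19 in homo (95% interval -0.74 to 0.37), and turned to 0.04 in homo without replicate 1. Jam3 was at 29.7 to 33.6 CPM in WT and 34.4, 22.1 and 25.2 CPM in homo, a change of -0.21 (95% interval -0.78 to 0.36, FDR 0.71), or -0.42 without homo replicate 1. In het it was 31.9, 44.1 and 34.9 CPM, and homo replicate 1 again lay with the WT and het libraries.

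Over the 9 genes, the median log2 fold change in Cryaa homo against WT was -0.60, with 7 genes below 0, and over all genes tested the median was 0.0047. By library size alone, which moved the median of all genes to 0.41, Epha2 (0.24) and Jam3 (0.23) turned to above 0. Without homo replicate 1 the median over the 9 genes was -0.42. Markers of other cells moved in the same libraries. In Cryaa homo, the summed level of 7 vessel genes was 31.8 to 79.6 CPM (27.6 to 45.5 in WT), that of 7 mesenchyme and pericyte genes 29.3 to 116 CPM (29.0 to 49.6 in WT), and that of 9 macrophage genes 21.8 to 41.6 CPM (8.17 to 19.6 in WT). Homo replicate 1 gave the lowest homo value in each of these lists (31.8, 29.3 and 21.8 CPM), and its vessel and mesenchyme values were below the highest in WT. Gene by gene, the median change was 0.90 over the vessel list (1 of 7 called higher) and 1.30 over the macrophage list (2 of 9 called higher), but -0.23 over the mesenchyme list, with 3 of 6 tested genes above 0 and 1 called in each direction. The sum of 8 pigment and ciliary epithelium genes went from 18.6 to 36.0 CPM in WT to 9.73 to 15.1 CPM in homo, with a median change of -1.13 and 2 of 8 called lower. The part of these markers and of the lower fibre markers in the results above was not tested. In RNA from whole lenses, fewer cells of a type and less RNA per cell cannot be told apart.

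In the Cryab line none of the 9 genes was called in het or homo. Cadm1 was at 158, 213 and 205 CPM in WT, 177, 195 and 209.6 CPM in het, and 186, 209 and 163 CPM in homo, and its changes were 0.01 in het (95% interval -0.47 to 0.50) and -0.04 in homo (95% interval -0.53 to 0.44). Itga6 was at 44.4, 44.5 and 54.4 CPM in WT and 27.7, 30.8 and 53.5 CPM in homo, a change of -0.36 (95% interval -1.03 to 0.31, FDR 0.951). Itgav showed the lowest fitted change of the line in homo, -0.50 (95% interval -1.25 to 0.24, FDR 0.927), at 26.3, 18.7 and 23.8 CPM in WT and 13.8, 8.96 and 25.9 CPM in homo. In both of these genes homo replicate 3 lay with the WT libraries and the others below them. Same-numbered WT and homo libraries of this line deviated together over all genes, although the labels do not say that the numbers pair them. Itga6 was lower in homo in 3 of 3 such pairs (44.4 and 27.7, 44.5 and 30.8, 54.4 and 53.5 CPM), Itgav in 2 of 3. Of the 9 genes, Itga6 and Cdh1 were lower in all 3 pairs, as were 12.8% of all genes. With the replicate number as a block, the changes of Itga6 and Itgav were -0.39 (FDR 0.866) and -0.57 (FDR 0.742).

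The 6 remaining genes also overlapped between the genotypes of the Cryab line. Efna5 was at 6.93, 17.5 and 17.9 CPM in WT, 16.7 to 19.5 CPM in het and 11.5 to 18.7 CPM in homo, with WT replicate 1 the lowest of all. Jam3 was lowest in the same WT library, at 20.5 CPM, against 46.5 and 44.6 CPM in the other WT libraries, 31.9 to 50.8 CPM in het and 32.2 to 55.5 CPM in homo. That library, Cryab WT replicate 1, thus widened the WT range of both genes, and their homo changes turned from 0.10 and 0.17 with it to -0.22 and -0.12 without it.

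Cdh2 was at 30.6 to 39.5 CPM in Cryab WT, 27.7 to 32.9 CPM in het and 21.7, 20.5 and 43.0 CPM in homo. As in the integrin chains, its homo replicate 3 was above the other homo libraries. Itgb1 was also highest in replicate 3, with 27.2, 36.8 and 51.9 CPM in homo, against 40.9 to 51.6 CPM in WT and 36.9 to 44.3 CPM in het. Cdh1 was at 4.73, 5.73 and 7.12 CPM in WT, 3.78 to 6.67 CPM in het and 2.82, 5.17 and 6.27 CPM in homo. It was lower in homo in 3 of 3 same-numbered pairs, and its change with the replicate number as a block was -0.33 (FDR 0.902). The Eph receptor Epha2 was at 6.05 to 8.60 CPM in WT, 6.06 to 6.86 CPM in het and 5.50 to 8.48 CPM in homo.

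Over all genes, the share called in that line by edgeR's quasi-likelihood test was 0.00717% in het (1 gene) and 0.0502% in homo against WT (7 genes, with 851 at an unadjusted p under 0.05). These counts depended on the filter and test, with 140 and 302 genes under the study's filter and 46 and 257 by the likelihood-ratio test. Between homo and het the share was 0% (273 genes at an unadjusted p under 0.05), with 15 genes under the study's filter, 2 by the likelihood-ratio test and 0 by DESeq2's Wald test. None of the 9 genes was called in the Cryab line under any of these settings, and by the quasi-likelihood test 0 of the 9 were at an unadjusted p under 0.05. Groups that do not overlap were found for 10.1% of all genes in het against WT, 9% in homo against WT and 6.86% in homo against het. Intervals for the 9 genes in homo reached from -1.25 to 0.86 on the log2 scale, so changes of up to about that size could not be told from the spread. Summed photoreceptor markers lay between 22.3 and 1225 CPM over the Cryab libraries. Summed pigment and ciliary epithelium markers were 6.60 to 8.31 CPM in WT, 19.5 to 60.1 CPM in het and 17.96 to 32.3 CPM in homo. The part of these markers in the levels was not tested.

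**Figure D3:**
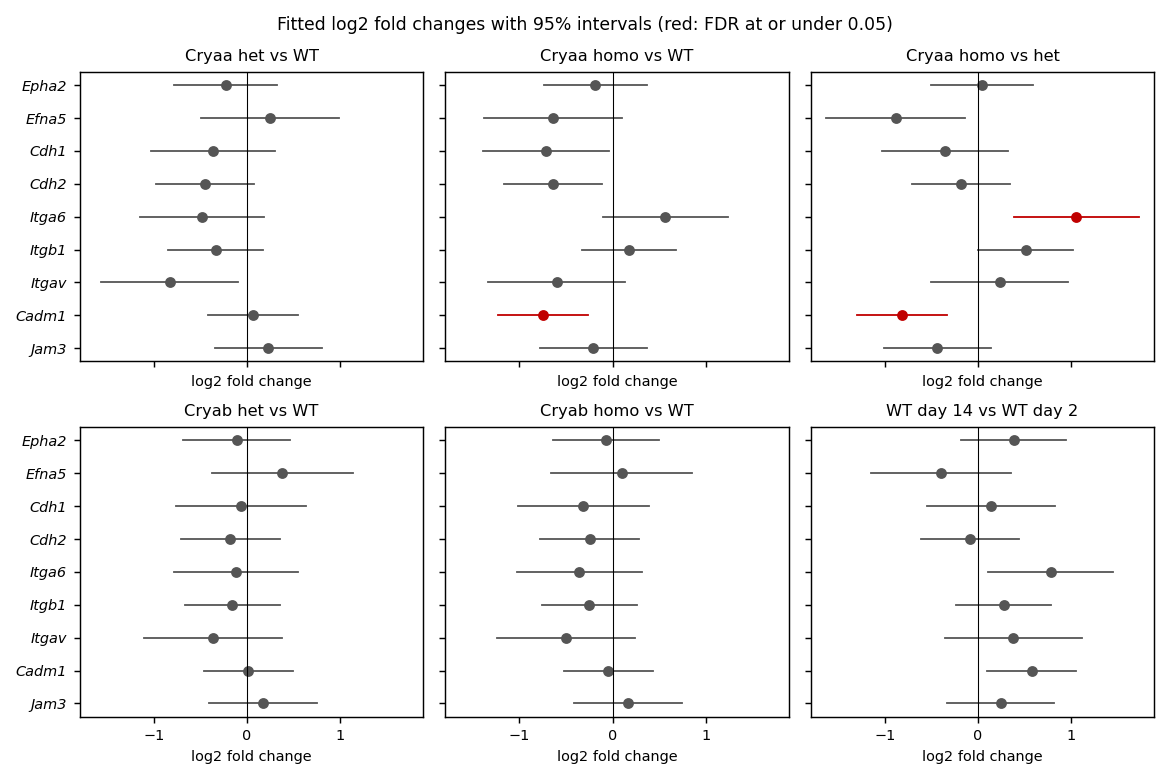
Fitted log2 fold changes (x axis) of the 9 genes (y axis) in 6 comparisons, with lines for 95% intervals from edgeR and red for an FDR of at most 0.05. Red marks Cadm1 in Cryaa homo against WT (-0.75) and against het (-0.81), and Itga6 in homo against het (1.05). No other gene passed the threshold in these comparisons.

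The homo change was compared between the lines by the difference of the log2 fold changes, Cryab minus Cryaa. edgeR's quasi-likelihood test called 0 of the 9 genes (1 at an unadjusted p under 0.05), while it called 2.91% of all genes. The difference was 0.71 for Cadm1 (SE 0.33, FDR 0.303) and -0.92 for Itga6 (SE 0.46, FDR 0.34). Without Cryaa homo replicate 1 it was 1.09 for Cadm1 (FDR 0.00432), -1.26 for Itga6 (FDR 0.0224) and 1.39 for Efna5 (FDR 0.0316). With all libraries kept, the likelihood-ratio test called the difference of Cadm1 (0.90, FDR 0.0315), and the other 7 settings did not. Whether a change differed between the lines thus depended on the test and on that library. Pigment and ciliary epithelium markers differed in the same direction as Cadm1 (median 2.99, 3 of 8 called higher), as did lens fibre markers (median 0.72, 3 of 11), and their part was not tested.

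Between the WT groups of the lines, at 14 and at 2 days, edgeR's quasi-likelihood test called 0 of the 9 genes (2 at an unadjusted p under 0.05), although it called 23.2% of all genes. Cadm1 was 158 to 213 CPM at day 14 and 118 to 136 CPM at day 2, a change of 0.57 (SE 0.23, FDR 0.078). Itga6 was 44.4 to 54.4 CPM at day 14 and 18.7 to 34.3 CPM at day 2, a change of 0.78 (SE 0.32, FDR 0.0853). Both were called higher by the likelihood-ratio test (FDR 0.0195 and 0.0241) and with only the groups compared (FDR 0.0172 and 0.0163), Itga6 alone with the study's filter (FDR 0.0373), and neither by DESeq2's Wald test. Both were above day 2 in every day-14 library, as were 20.2% of all genes. The changes of the others lay between -0.40 (Efna5) and 0.38 (Epha2). These directions depend on the scaling, since by library size alone the crystallin-rich day-14 libraries gave all 9 genes a change below 0 (-0.96 for Cadm1, -0.70 for Itga6), with the median of all genes at -1.61.

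Relatives of the 9 genes, taken from 6 lists of adhesion genes, were also compared between the WT groups. At day 14, 7 of 19 Eph receptors and ephrins tested were lower and none was higher, where 11.5% of all genes were lower and 11.7% higher. The receptor Epha8 was at 2.60 ± 1.18 CPM at day 2 and 0.108 ± 0.041 at day 14 (SD, n = 3 each, log2 fold change -4.54, FDR 0.000872). Of 13 classical cadherins, 4 were lower, all of them kept by the filter only through Cryaa libraries, as given below. One of them, Cdh11, was at 3.88 ± 1.07 CPM at day 2 and 0.258 ± 0.277 CPM at day 14 (FDR 0.000225). Of 22 immunoglobulin-family and tight junction genes, 7 were lower and 1 higher. Of these called genes, 3 of the 7 Eph genes (Epha8 among them), 3 of the 4 cadherins (not Cdh11) and 1 of the 7 lower immunoglobulin-family genes reached the level of the filter on low counts in no Cryab library. Ephb1, Cdh11, Alcam, Cldn1 and the integrin subunit Itga9 reached it in 0 Cryab WT libraries and at most 1 het and 1 homo library of that line, fewer than the 3 that the filter needs. All of these genes were thus kept only through Cryaa libraries, so they could only be lower at day 14. Of 16 integrin subunits, 2 were lower and 1 was higher, Itgb5 (16.6 ± 4.56 against 33.3 ± 1.29 CPM, 2.01-fold, FDR 0.00472). Among catenins and their partners Ctnna2 alone of 11 was called, higher by 1.08. Among 12 integrin partners Lims1 alone was called, higher by 1.24 (FDR 0.00049). By library size alone the changes of Itgb5, Ctnna2 and Lims1 turned to -0.48, -0.44 and -0.28. The median change over the Eph and ephrin list was -0.99, against -0.07 over all genes. At day 14 the macrophage, vessel and mesenchyme markers were also lower, by called counts of 9 of 9, 5 of 7 and 4 of 6, as were pigment and ciliary epithelium markers by 5 of 8 (median -1.82). Photoreceptor markers were higher by 5 of 8 and lens fibre markers by 8 of 11. The part of these markers was not tested.

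In Cryaa homo against WT, where 4.87% of all genes were called higher and 4.92% lower, Lims1 and Itga2 were the relatives with the lowest FDR among those that fell. Lims1, an adaptor that links integrins to the actin cytoskeleton, was at 43.3 ± 7.20 CPM in WT and 13.2 ± 2.93 CPM in homo (means ± SD of 3 libraries each), and fell by 1.72 on the log2 scale (SE 0.23, FDR 2.95e-05). It was the one call among 12 integrin partners, and was called under all 14 other settings (-1.86 to -1.24). Its change differed between the lines by 1.65 (FDR 0.00462, called under all 20 other settings). Itga2, a collagen-binding alpha chain, was at 5.44 ± 1.25 and 1.91 ± 0.884 CPM, a change of -1.49 (SE 0.27, FDR 0.00081), called under 13 of 14 other settings. Its change differed between the lines by 1.59 (FDR 0.0231), a difference called under 11 of 20 other settings (highest FDR 0.134). Among integrin subunits, Itgal was also lower (-1.74, called under 5 of 14 other settings), 2 called of 15. The level of Itgal was near the floor, at 0.467 CPM in WT and 0.137 CPM in homo. Itgad, listed at 0 in every WT library, passed the filter on low counts only through the homo libraries, so its call as higher was fixed by the filter and it is left out of these counts. Cdh5, the cadherin of vessel endothelium, was 10.5 ± 7.63 CPM in homo and 3.03 ± 0.102 CPM in WT. Its change was 1.78 (FDR 0.0247, called under 8 of 14 other settings), beside the vessel markers given above. Cdh7, near the floor at 0.476 CPM in WT and 0.105 CPM in homo, was lower (-2.06, called under 6 of 13). Cdh7 passed the filter only through WT and het libraries, so it could only be lower, as Itgad could only be higher. Against het, 3 of the same 15 integrin subunits were higher and 1 lower, with a median of 0.80 over the list against 0.02 over all genes, where 4.69% of all genes were higher and 3.63% lower. The summed level of 26 integrin subunits was 75.2 to 99.7 CPM in het, 91.2 CPM in homo replicate 1, within that range, and 187.8 and 149.4 CPM in the other homo libraries. Leaving out any other library of the homo and het groups left no integrin subunit but Itgad called higher, whereas 6 of 19, Itgad included, were higher without homo replicate 1. Beside Itga6, Itga1 (1.15, FDR 0.0496) was called under 6 of 14 other settings, and Itga2, the lower one (-1.10), under 10 of 14. Of the 12 integrin partners, Lims1 was lower against het (-1.30, called under all 14 other settings). Parvb (1.87, FDR 0.034, called under 8 of 14) and Fermt2 (0.77, FDR 0.0376, called under 6 of 14) were higher. In that comparison the medians of the vessel (1.10), mesenchyme (1.02) and macrophage (1.21) markers were also above 0, with 1 of 7, 2 of 6 and 2 of 9 called higher, and their part was not tested. Of 19 Eph receptors and ephrins, edgeR's quasi-likelihood test called 0 in either comparison, with 1 against WT and 4 against het at an unadjusted p under 0.05, and DESeq2's Wald test called 0. The likelihood-ratio test called 1 against WT (Efna5) and 4 against het, 3 of them lower, Efna5 included, and the study's filter gave 2 lower against het, Ephb1 and Efna5 (FDR 0.0235 for Efna5). Without homo replicate 1, Efna5 was called in both.

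Across the libraries of each line, the 9 genes fell into sets that were drawn up after the values were seen. Cadm1, Jam3 and Efna5 rose and fell together, with Pearson's r of log2 CPM between 0.80 and 0.90 in the 9 Cryaa libraries and between 0.86 and 0.93 in the 9 Cryab libraries. By rank (Spearman's rho) these pairs were at 0.50 to 0.67 for Cryaa and 0.77 to 0.92 for Cryab libraries, and in the Cryaa line Cadm1 was as close by rank to Cdh1 (0.68) as to Jam3 (0.67). The other 6 genes were positively correlated in all 15 pairs of both lines (0.14 to 0.91 and 0.40 to 0.94), with Itga6 and Itgb1 at 0.91 and 0.92. Between the sets, 12 of 18 pairs in the Cryaa line and 17 of 18 in the Cryab line were negative, the lowest being Efna5 with Itga6 (-0.82) in the Cryaa line. By rank 12 and 15 of the 18 were negative, and Cadm1 with Epha2 in the Cryaa line turned from -0.09 by Pearson's r to 0.45. These are descriptions over libraries that share genotype, scaling and depth, and genotype differences are part of them in the Cryaa line.

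The share of counts taken by Gm42418 was compared with the same sets. Its log2 share correlated with the log2 CPM of Epha2, Cdh1, Cdh2, Itga6, Itgb1 and Itgav at r between 0.19 (Cdh1) and 0.80 (Epha2) in the Cryaa line and between 0.59 (Epha2) and 0.90 (Itgav) in the Cryab line. With Cadm1, Jam3 and Efna5, r was between -0.53 and -0.31 in the Cryaa line and between -0.66 and -0.51 in the Cryab line. By rank, Cadm1 in the Cryaa line was at -0.07, against -0.67 for both Jam3 and Efna5. In Cryaa homo replicates 1 to 3 the share was 2.53%, 24.5% and 42.6%, with Cadm1 at 111.8, 58.0 and 60.0 CPM. In Cryaa WT replicates 1 to 3 it was 27.8%, 30.1% and 20.01%, with Cadm1 at 132, 136 and 118 CPM. The part of Gm42418 in the levels was not tested.

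**Figure D4:**
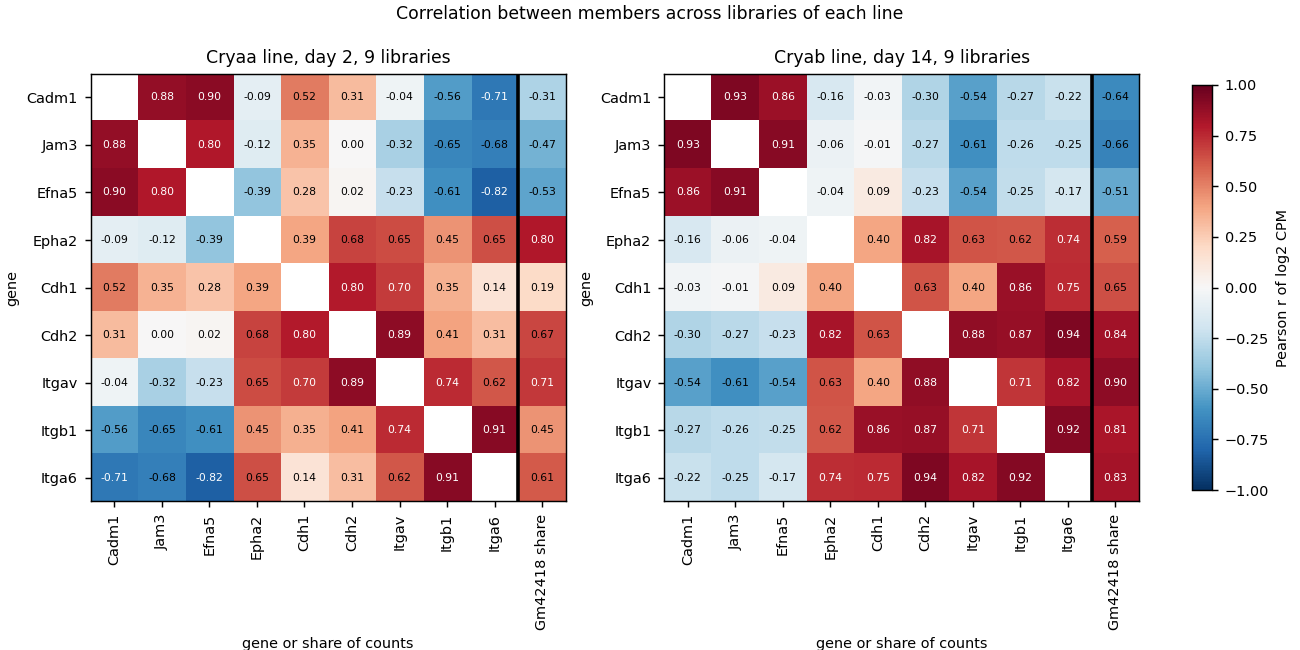
Pearson's r of log2 CPM between the 9 genes (both axes), and with the log2 share of Gm42418 (last column), over the 9 libraries of each line; red is positive, blue negative. Cadm1, Jam3 and Efna5 correlate at 0.80 to 0.93 in both lines and are negative with the Gm42418 share, while the other 6 genes are positive with one another and with it.

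Among 3081 genes with a mean of at least 10 CPM, those most like each of the 9 were ranked by the lower of their Pearson's r in the 2 lines (9 libraries each). Gsn was most like Cadm1 (0.96 in both lines), Asah1 most like Efna5 (0.96 and 0.95), and Stip1 most like Jam3 (0.93 and 0.95). Stip1 was also among the 3 most like Cadm1. Strn3 was most like both Itga6 (0.95 and 0.96) and Itgb1 (0.92 and 0.96), with Col4a1 next for Itgb1 (0.91 and 0.94) and Sfrp1 among the 3 for Itga6 (0.95 and 0.94). Bmpr1a was most like Cdh2 (0.95 in both), Tnks2 most like Itgav (0.95 and 0.96), Sema3a most like Cdh1 (0.86 and 0.83) and Atp8a1 most like Epha2 (0.80 and 0.94).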

How the data were processed

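Per the labels and the study's methods, the authors sequenced single reads of poly-A RNA, aligned them to GRCm38 with STAR 2.0.4b and counted uniquely aligned, unambiguous reads per Ensembl gene with featureCounts 1.4.5. The deposited counts are whole numbers without normalization. The deposited RPKM values were used only for the authors' gene lengths, and the CPM and moderated log2 CPM tables were not used. Of 41422 lines, 1 was kept for each of 40800 genes. Groups follow the titles, because 6 Cryab libraries carry the Cryaa line in their genotype label.

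Genes kept by filterByExpr (13938) were scaled by TMM and fitted in 1 model of 6 groups over 18 libraries with edgeR 4.0.16 in R 4.3.3 (robust quasi-likelihood test, prior of 10.2 degrees of freedom), a choice made because the study's filter gave an infinite prior. FDR values are Benjamini-Hochberg over all genes of a comparison, with a threshold of 0.05. Log2 CPM used a prior count of 2. Precision is given by standard errors and by 95% intervals. They rest on the spread between libraries within groups, pooled over the 6 groups (12 residual degrees of freedom) and moderated by the prior. A wider spread in 1 group is thus shared over all, as for Cadm1 (SD 30.5 CPM in Cryaa homo and 9.49 CPM in Cryaa WT). DESeq2 1.42.0 and other scalings, filters and left-out libraries were tried. The members and lists were chosen with earlier results of these data known. The text names the 9 genes, up to 3 called genes per adhesion list with the largest change, and up to 3 most-like genes for each of the 9. Same-numbered Cryab WT and homo libraries deviated together (r = 0.28, 0.18 and 0.16), and in no other comparison were all 3 above 0.1. They are therefore also described as pairs, but this pairing was drawn from these same data. The labels do not say that a replicate number joins libraries of different groups.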

Additional observations from a re-analysis of the deposited data

How the results depend on the processing

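Each of the 9 genes had 43 counts or more in every library. The spread between the 3 libraries per group, pooled over the 6 groups, set the width of the intervals. Cadm1 in Cryaa homo stayed lower under all settings, and Itga6 stayed higher, but both calls rested on settings and libraries as given above. The causes were not tested.

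Genes called in the Cryaa het comparison (1) were 17 with the study's filter, 2 with DESeq2's Wald test, 15 with the likelihood-ratio test, and 0 with TMM without crystallins and Gm42418 or with only the groups compared. Genes called in Cryaa homo against WT (1365) were 2138 by library size alone (1884 higher, 254 lower), 2886 by the likelihood-ratio test and 478 with only the groups compared. The 1 of the 9 genes called there became 0 with the study's filter, with TMM without crystallins and Gm42418 and with only the groups compared, and 3 with the likelihood-ratio test, while by library size alone Cadm1 was not called (-0.28, FDR 0.54) and Itga6 was, as the 1 gene higher. Genes called in homo against het (1160) were 3051 by the likelihood-ratio test and 294 with only the groups compared, and the 2 of the 9 became 3, with Efna5 (lower), with the study's filter or the likelihood-ratio test, 1 by library size alone (Itga6) or DESeq2 size factors (Cadm1) and 0 with only the groups compared. Genes called in Cryab het (1) were 140 with the study's filter, 12 by DESeq2, 46 by the likelihood-ratio test and 3 with the replicate block. In Cryab homo against WT (7) they were 302, 20, 257 and 18 in the same order, and 2 with only the groups compared. In Cryab homo against het (0) they were 15 with the study's filter and 2 by the likelihood-ratio test. For the difference between the lines (406) they were 798 with the study's filter, 256 by library size alone, 626 by DESeq2, 1455 by the likelihood-ratio test and 209 with only the groups compared, and the likelihood-ratio test called 1 of the 9. Between WT groups (3237) library size alone called 11593 (157 higher, 11436 lower) and all 9 genes, the study's filter 1 of the 9, and the likelihood-ratio test and only the groups compared 2 each. The replicate block, which was not run between WT groups, changed no call of the 9 genes in the other comparisons.

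Leaving out 1 library each gave 0 to 2 genes in Cryaa het, 731 to 3094 (0 to 3 of the 9) in homo against WT, 453 to 4131 (0 to 4 of the 9) in homo against het, 0 to 3 in Cryab het, 1 to 13 in Cryab homo, 243 to 1800 (0 to 3 of the 9) for the difference and 1782 to 3172 between WT groups.

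Library size alone moved the median change of all genes to 0.21 in Cryaa het, 0.41 in Cryaa homo, 0.37 in Cryab homo and -1.61 between WT groups. Changes that turned sign were not called, apart from those between WT groups. By library size alone, Epha2 was 0.022 in Cryaa het and 0.24 in homo, and Jam3 0.23 in homo. In Cryab het, Cdh1 was 0.15, Cdh2 0.031, Epha2 0.10, Itga6 0.095 and Itgb1 0.060. In Cryab homo, Cadm1 was 0.32, Cdh1 0.015, Cdh2 0.095, Epha2 0.30 and Itgb1 0.089. In Cryab homo against het, Cadm1 was 0.11, Cdh2 0.064, Itgav 0.0050, Itgb1 0.029 and Jam3 0.16, and Jam3 was 0.011 with DESeq2 size factors or its Wald test, 0.010 with TMM without crystallins and Gm42418, 0.0082 with the block and 0.029 with only the groups compared. The difference for Itgav was -0.015. Between WT groups, Cadm1 was -0.96, Cdh1 -1.31, Ctnna2 -0.44, Epha2 -1.13, Itga6 -0.70, Itgav -1.11, Itgb1 -1.25, Itgb5 -0.48, Jam3 -1.29 and Lims1 -0.28. By the likelihood-ratio test, Epha2 was -0.027 in Cryaa homo against het.

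With 1 library left out, Cadm1 was -0.041 to 0.14 in Cryaa het, Epha2 -0.48 to 0.035 and Itgb1 -0.10 to 0.34 in homo against WT, and Epha2 -0.25 to 0.26 and Itgav -0.25 to 0.52 in homo against het. In Cryab het, Cadm1 was -0.11 to 0.10, Cdh1 -0.20 to 0.15, Epha2 -0.20 to 0.068 and Jam3 -0.12 to 0.36. In Cryab homo, Cadm1 was -0.17 to 0.042, Efna5 -0.22 to 0.30, Epha2 -0.27 to 0.11 and Jam3 -0.12 to 0.36. In Cryab homo against het, Cadm1 was -0.15 to 0.028, Cdh1 -0.49 to 0.022, Cdh2 -0.49 to 0.13, Epha2 -0.16 to 0.17, Itgav -0.64 to 0.16, Itgb1 -0.36 to 0.11 and Jam3 -0.26 to 0.16. The difference was -0.037 to 0.58 for Cdh2, -0.11 to 0.41 for Epha2 and -0.41 to 0.58 for Itgav, and between WT groups Cdh1 was -0.17 to 0.36 and Cdh2 -0.26 to 0.030.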
